A study of Homo sapiens with 6 samples.

Results

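The genes described here encode the machinery that reads mRNA into protein and a few proteins that act on mRNA from outside it. They are 51 of the 2723 genes for which a proximal and a distal polyadenylation site (pPAS and dPAS) were listed in QuantSeq FWD data of HL-60, a human cell line from a promyelocytic leukemia. They were taken by gene symbol alone, as translation initiation and elongation factors, the release factors ETF1 and GSPT1, ribosomal proteins, aminoacyl-tRNA synthetases, and the AGO, PUM and LARP families. The symbols also took kinases and methyltransferases that act on these factors. The study set OE-CFIm25 cells, which carried the coding sequence of CFIm25 in a lentiviral vector with the EF1a promoter, against OE-control cells, which carried the vector without an insert. There were 3 samples in each group. Cells of both groups were selected with puromycin and treated for 6 h with 3 nM PMA, a phorbol ester that drives these cells toward macrophages. Each gene had 1 pPAS and 1 dPAS for the whole series, and the values below describe these sites. Levels per sample and the change between OE-CFIm25 and OE-control were not analysed here, so nothing below compares the groups.

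Most human genes can end their mRNA at more than 1 place. Cleavage and polyadenylation at the pPAS leaves a short 3’ UTR, and cleavage at the dPAS leaves a long one that can hold more sites for microRNAs and RNA-binding proteins. The cut usually lies a short way after a poly(A) signal, most often AATAAA or ATTAAA in the genomic strand. CFIm25 is the subunit of cleavage factor Im that binds UGUA upstream of the cut. The genes for ribosomal proteins are known for short untranslated regions and for many processed pseudogenes, which are copies of their mRNA put back into the genome.

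By symbol, the same rule took 206 protein-coding genes of the annotation, so the 51 members were a minority with 2 listed sites. They were 17 of 56 initiation genes, 6 of 18 elongation and release genes, and 9 of 85 ribosomal protein genes. Roles were also set by symbol, and every gene named EIF counted as an initiation gene whatever its function. Of the synthetases, 8 of 18 with cytoplasmic symbols and 6 of 17 with mitochondrial symbols were listed. From the AGO, PUM and LARP families, 5 of 12 were listed. Most ribosomal protein genes therefore had no pair of sites in the table. The same share over all protein-coding genes was not counted, so none of these shares can be called high or low. In the 6 libraries, which carried numbers that match no sample, reads assigned to a PAS within a gene numbered 3525582 to 3845872, with a median of 3603012.

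The sequences below show how the pairs differ. Each is the 30 nt up to and with a PAS, in the sense of the transcript, read from GRCh37, which is the assembly behind hg19. The capitals mark the poly(A) signal nearest to the cut. The first set holds the narrowest and the widest pair of each role, with all synthetases as 1 role, without AGO2 and with only the wide pair of the ribosomal protein genes.
EIF3L dPAS, chr22:38284608-38284637, plus strand: tggatctcagtaaaggatctttggagccag
EIF3L pPAS, chr22:38284581-38284610, plus strand: acaagttaaggaccgaagtgtttcaagtgg
EIF4EBP2 dPAS, chr10:72187076-72187105, plus strand: ctctcagcttttAATAAAagatgaaatcag
EIF4EBP2 pPAS, chr10:72183652-72183681, plus strand: aactccaagtctcattttacatattcttgg
EEF1AKMT2 dPAS, chr10:126448427-126448456, minus strand: gtatataATTAAAcaaaatcagagaaatgt
EEF1AKMT2 pPAS, chr10:126448524-126448553, minus strand: gactgtttatgaaatataacaagaaatact
GSPT1 dPAS, chr16:11962236-11962265, minus strand: tagacagcaggttaatacctagatctcatt
GSPT1 pPAS, chr16:11966539-11966568, minus strand: aactaccatgttAATAAAatattcaatttg
RPL22 dPAS, chr1:6245092-6245121, minus strand: attttctATTAAAgtggctaacacctggct
RPL22 pPAS, chr1:6246279-6246308, minus strand: gactgtcAATAAAatgcgggtttctgggcc
SARS1 dPAS, chr1:109780749-109780778, plus strand: actcttcctcagtcttcttccccgggcttg
SARS1 pPAS, chr1:109780713-109780742, plus strand: aaccatgtAATAAAgcatctctggggaggg
WARS2 dPAS, chr1:119573841-119573870, minus strand: tgacaaaactaaaggtagatctatcaagcc
WARS2 pPAS, chr1:119575302-119575331, minus strand: acaacaacaaaaAATAAAtcaagaaggcat
PUM2 dPAS, chr2:20448477-20448506, minus strand: tgaAATAAAcctggtcttgtgtttttctct
PUM2 pPAS, chr2:20449617-20449646, minus strand: ATTAAAatcgtttttaatcctttgcctatg
Among these, RPL22 and PUM2 had a signal at both sites within the 30 nt. EIF3L had none at either, and the signal of the EIF4EBP2 pPAS began 34 nt before the cut, outside the stretch shown.

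The members' sites lay at very different distances from each other. The spacing, the distance in nt between dPAS and pPAS, had a median of 579 nt in the 51 members (95% binomial interval over genes 152 to 1140) and 761 nt in the 2672 other genes (697 to 816). The widest pair was that of AGO2, at 11186 nt. Genes are not replicates, and this interval covers only the choice of genes. Without the 9 ribosomal protein genes, the median of the 42 remaining members was 869.5 nt. In 21 members (41.2%, 95% Wilson interval 28.8 to 54.8%) and in 41.9% of the other genes the sites were at least 1000 nt apart. Sites under 100 nt apart were found in 12 members (23.5%, 14.0 to 36.8%) and in 10.6% of the other genes, and 7 of these 12 were ribosomal protein genes.

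**Figure D1:**
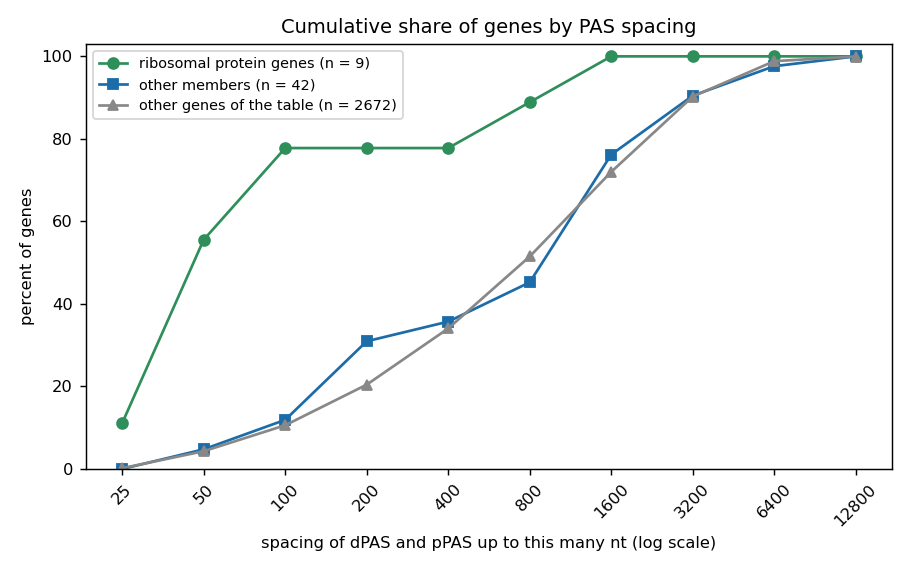
Cumulative percent of genes (y axis) whose dPAS and pPAS lie up to a given number of nt apart (x axis, log scale), for 9 ribosomal protein genes, the 42 other members and the 2672 other genes of the table. At 100 nt the ribosomal protein genes stand at 77.8%, the other members at 11.9% and the other genes at 10.6%.

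Among the genes of initiation, EIF3L and EIF4A1 had the narrowest pairs. EIF3L, a subunit of eIF3, the complex that holds the small ribosomal subunit ready for mRNA, had a spacing of 27 nt, and EIF3I, another subunit, one of 113 nt. The helicase genes EIF4A1 and EIF4A2, whose products unwind the 5’ UTR, had spacings of 76 and 129 nt. The widest pairs were those of EIF4EBP2 and EIF2S1. EIF4EBP2, a repressor that binds the cap-binding factor eIF4E, had 3424 nt between its sites, and EIF2S1, the eIF2 subunit that stress kinases phosphorylate, had 2657 nt. For the kinases themselves the pairs were unlike: EIF2AK2, the kinase PKR that senses double-stranded RNA, had a spacing of 1940 nt and EIF2AK4, the kinase GCN2 that senses uncharged tRNA, one of 123 nt. The remaining spacings were 142 nt in EIF2A, 197 nt in EIF4E, 643 nt in EIF1, 866 nt in EIF4E3, 1252 nt in EIF5A2, 1258 nt in EIF1AX, 1285 nt in EIF5, 1341 nt in EIF2S3 and 1880 nt in EIF1AD.

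The elongation and release genes had wide pairs with 1 exception. The exception was EEF1AKMT2, a lysine methyltransferase of eEF1A, at 97 nt. GSPT1, which encodes the GTPase eRF3a, had 4303 nt between its sites, and ETF1, which encodes the stop codon reader eRF1, had 1347 nt. EEF2K, the kinase that phosphorylates eEF2, had 2108 nt, EEF1A1, the factor that brings aminoacyl-tRNA to the ribosome, had 1766 nt, and EEF2KMT, a lysine methyltransferase of eEF2, had 1033 nt.

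The ribosomal protein genes had the lowest median of the 6 roles, 50 nt (26 to 444). Among them RPS2, RPL23, RPL26L1, RPS13 and RPL14 had spacings of 26, 29, 50, 55 and 84 nt. Only RPL7L1, at 444 nt, and RPL22, at 1187 nt, had wider pairs. RPL7L1 and RPL26L1 are paralogs of ribosomal protein genes rather than genes of the standard ribosome. Of a list of 80 cytoplasmic ribosomal protein genes, 8 were in the table, with a median spacing of 46 nt, and this list adds RPSA, which the symbol rule did not take.

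The synthetases charge tRNAs with their amino acids, in the cytoplasm or in mitochondria. Pairs were narrower in the cytoplasmic genes, with a median of 143 nt (36 to 873), than in the mitochondrial ones, with a median of 682.5 nt (299 to 1461), and the ranges of the 8 and 6 genes overlapped. The narrowest cytoplasmic pairs were those of SARS1 (36 nt), AARS1 (93 nt), RARS1 (106 nt), GARS1 (134 nt) and TARS1 (152 nt). YARS1 and LARS1 had 442 and 873 nt. Mitochondrial genes included MARS2 (299 nt), TARS2 (329 nt), AARS2 (829 nt), EARS2 (1023 nt) and WARS2 (1461 nt).

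The 5 genes of AGO, PUM and LARP proteins, which bind mRNA and act on its stability or translation, all had more than 1000 nt between their sites. AGO2, the Argonaute that can cut its target, had 11186 nt, and AGO1 had 5313 nt. LARP4, which binds poly(A), had 2003 nt, and PUM2, which binds the Pumilio motif, had 1140 nt. A further list of 36 genes of translation control outside the rule, such as PABPC1 and PAIP2, had 15 genes in the table with a median spacing of 777 nt. TNRC6B, a partner of Argonaute proteins, was the widest of these at 11918 nt. A list of 51 cytoplasmic translation factors had 16 genes in the table with a median of 1059 nt, and all 16 were members.

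Both sites of 50 members fell within the last-exon 3’ UTR of 1 annotated transcript. For these the median 3’ UTR length, counted from the stop codon, was 1185 nt to the dPAS and 348.5 nt to the pPAS. In the other genes the medians were 1744 nt and 579.5 nt. The 3’ UTR to the dPAS was a median of 2.51 times as long as to the pPAS in the members and 2.22 times in the other genes. RARS1, with only 106 nt between its sites, had the highest ratio, 22.2, since its 3’ UTR was 111 nt to the dPAS and 5 nt to the pPAS. RPL7L1, with 444 nt, had the lowest ratio, 1.15, at 3420 nt to the dPAS and 2976 nt to the pPAS.

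**Figure D2:**
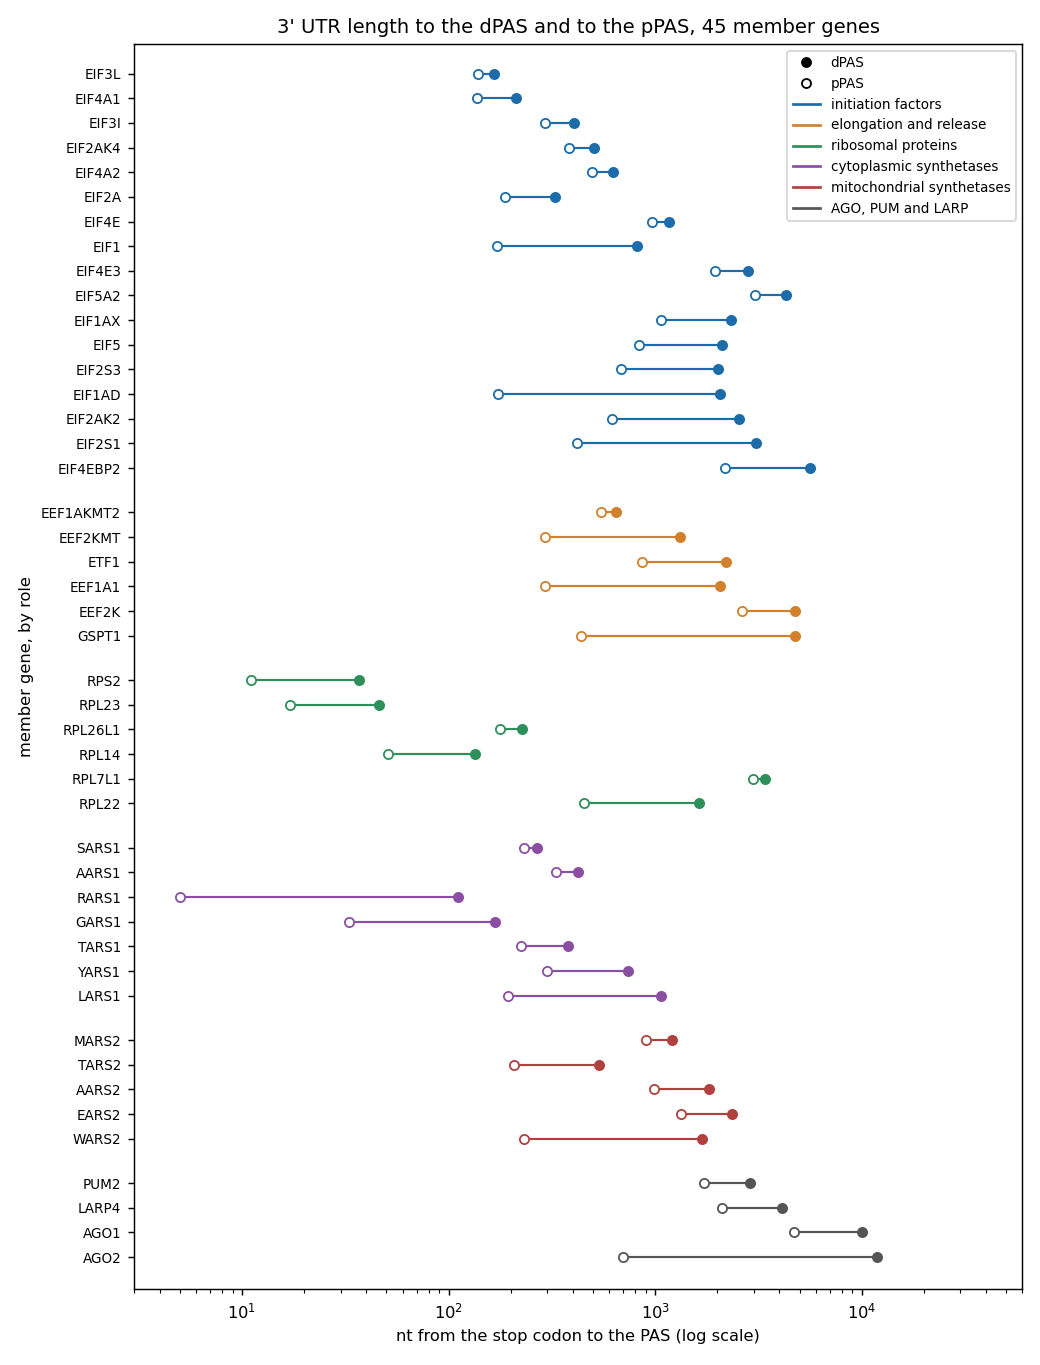
Distance in nt from the stop codon to the dPAS (filled points) and to the pPAS (open points) on a log scale, 1 line per gene, for 45 of the members with both sites in 1 annotated 3’ UTR, coloured by role. RPS2 and RPL23 end at 37 and 46 nt even at the dPAS, while AGO2 reaches 11885 nt at the dPAS and 699 nt at the pPAS.

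To the dPAS, the shortest 3’ UTRs were those of ribosomal protein genes, while to the pPAS that of RARS1 was shorter still. The lengths were 37 nt to the dPAS and 11 nt to the pPAS in RPS2, a protein of the small subunit near the mRNA entry site. They were 46 nt to the dPAS and 17 nt to the pPAS in RPL23. RPL14 had 135 nt to the dPAS and 51 nt to the pPAS. At the other end AGO2 had 11885 nt to the dPAS and 699 nt to the pPAS, and AGO1 had 10002 and 4689 nt. A pPAS within 50 nt of the stop codon was found in 6 of the 50 members (12%, 5.62 to 23.8%) and in 2.95% of the other genes (2.37 to 3.67%). RPS2, RPL23, RARS1 and GARS1 were among the 6.

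At the pPAS of RARS1 the poly(A) signal began before the 3’ UTR did. It began 25 nt before the first base of the 3’ UTR and lay wholly in the coding sequence. Among members with a signal at an annotated pPAS, 2 of 34 began before the 3’ UTR (5.88%, 1.63 to 19.1%), and among the other genes 24 of 1461 did (1.64%, 1.11 to 2.43%). The sequences of RARS1 are given because the signal of its pPAS is coding sequence.
RARS1 dPAS, chr5:167946277-167946306, plus strand: agcataagtaaagaaaatttgtcaaccagg
RARS1 pPAS, chr5:167946171-167946200, plus strand: AATAAAacctgtccaaaggatgtaatcctt

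RPS13 was the only member with a PAS outside the annotated 3’ UTR. Its dPAS, at 17095885 on chromosome 11, lay 50 nt past the end of the annotated gene, while its pPAS at 17095940 lay 5 nt before that end. The dPAS had neither hexamer, and the pPAS had an AATAAA that began 20 nt before the cut. In the other genes 99.3% of dPASs and 99.4% of pPASs fell within the annotated last-exon 3’ UTR.

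Reads were assigned to a PAS when they ended within 24 nt of it, so sites up to 48 nt apart share part of their windows. This was so for 6 members (11.8%, 5.51 to 23.4%) and for 4.12% of the other genes (3.43 to 4.94%). EIF3L, RPL23, RPS2 and SARS1 were among them, and a read that ended in the shared part of the windows could belong to either site. The members just outside were RPL26L1 at 50 nt and RPS13 at 55 nt.

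In these close pairs a separate signal for each site was the exception, found in 1 of 6. In RPL23 and RPS2 the only signal of the pair was that of the dPAS, and it began after the pPAS, with 4 and 6 nt between the pPAS and its first base. The pPAS of each of these therefore stood in front of the AATAAA rather than behind it. This order was not particular to them. Among close pairs with a dPAS signal, it began after the pPAS in all 4 of the members and all 81 of the other genes. Of the 20 nt of genome after the pPAS, 17 were A in RPL23 and 13 in RPS2. By the measure of A-rich sequence given below, these were 2 of 6 close pairs, against 25.5% of close pairs of the other genes. In SARS1 the dPAS had no signal and the pPAS had an AATAAA, and EIF3L had neither hexamer at either site. Among the 110 close pairs of the other genes, 33.6% had a signal at both sites, 40% at the dPAS only, 13.6% at the pPAS only and 12.7% at neither. RPL23 is printed for this arrangement, in which the signal of the dPAS follows the last base of the pPAS.
RPL23 dPAS, chr17:37006339-37006368, minus strand: taaaaAATAAAaaaaaaaactaaacccatt
RPL23 pPAS, chr17:37006368-37006397, minus strand: cagcattgcatgattctccagtatatttgt

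Over all members, a search of the last 40 nt before the cut found AATAAA or ATTAAA at the dPAS in 36 of 51 (70.6%, 57.0 to 81.3%) and at the pPAS in 35 of 51 (68.6%, 55.0 to 79.7%). In the other genes the shares were 80.5% (79.0 to 82.0%) at the dPAS and 55.2% (53.3 to 57.1%) at the pPAS. The dPAS of the members thus carried a signal about as often as the pPAS did, while the other genes had more at the dPAS. In the 40 nt that end 100 nt upstream of the site, the same hexamers were found at 7.84% of dPASs and at none of the pPASs of members, and at 6.81% of dPASs and 3.52% of pPASs of the other genes. Where a signal was present it began a median of 21 nt before the dPAS and 22 nt before the pPAS in the members, and the same in the other genes.

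Signals were at both sites in 23 members (45.1%) and in 45.5% of the other genes. They were at neither site in 3 members (5.88%, 2.02 to 15.9%), among them EIF3L and EARS2, and in 9.73% of the other genes. A signal at the dPAS alone was found in 13 members (25.5%, 15.5 to 38.9%) and in 35% of the other genes. A signal at the pPAS alone was found in 12 members (23.5%, 14.0 to 36.8%) and in 9.77% of the other genes (8.70 to 11.0%). These 12 were EIF1AX, EIF2A, EIF2AK2, EIF4A1, EIF5A2, GSPT1, RPS13, RARS1, SARS1, AARS2, WARS2 and LARP4. In initiation genes the dPAS had a signal in 11 of 17 and the pPAS in 14 of 17, and in ribosomal protein genes the dPAS had one in 8 of 9 and the pPAS in 5 of 9.

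The libraries were primed with oligo(dT), which can also anneal to runs of A inside a transcript. The 20 nt of genome after a PAS counted as A-rich with 12 or more A among them, or with 6 A in a row. By this measure 6 dPASs (11.8%, 5.51 to 23.4%) and 12 pPASs (23.5%, 14.0 to 36.8%) of the members were A-rich. In the other genes the shares were 10.2% (9.13 to 11.4%) for dPASs and 26.8% (25.2 to 28.5%) for pPASs. At least 1 of the sites was A-rich in 17 members (33.3%) and in 33.3% of the other genes. The dPASs were those of EIF1AX, EIF2AK2, EIF4A1, EIF5A2, GSPT1 and LARP4, and EIF2AK2 was the only member with both sites A-rich. The pPASs included those of EIF2AK2, EIF2AK4, EIF3I, RPL23, RPL7L1, RPS2, GARS1, TARS2, AGO2 and PUM2.

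A-rich sites were mostly sites without a poly(A) signal. None of the 6 A-rich dPASs of members had AATAAA or ATTAAA (upper Wilson limit 39.0%), against 36 of the 45 other dPASs (80%, 66.2 to 89.1%). Of the 12 A-rich pPASs, 3 had a signal (25%, 8.89 to 53.2%), those of EIF2AK2, AGO2 and PUM2, against 32 of the 39 other pPASs (82.1%, 67.3 to 91.0%). The other genes had the same order, with signals at 33.0% of A-rich dPASs against 85.9% of the remaining dPASs, and at 12.2% of A-rich pPASs against 71.0% of the remaining pPASs. Of the 12 members with a signal at the pPAS alone, 6 had an A-rich dPAS (50%, 25.4 to 74.6%). Among other genes of that kind 34.5% had one. Of the 13 members with a signal at the dPAS alone, 8 had an A-rich pPAS (61.5%, 35.5 to 82.3%). Among other genes of that kind 54.6% had one. Whether reads at such sites came from priming within the transcript was not tested.

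**Figure D3:**
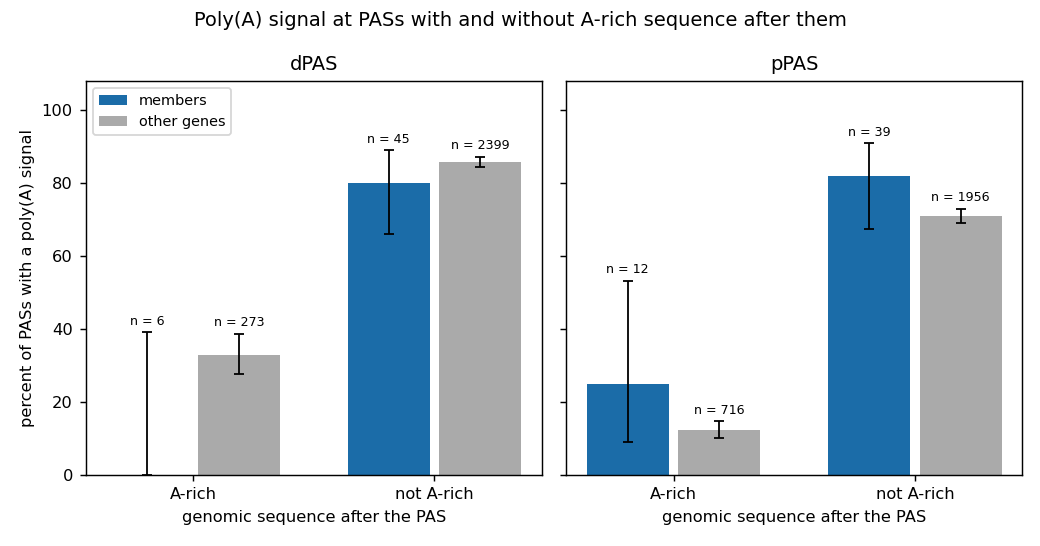
Percent of PASs with AATAAA or ATTAAA in the 40 nt before the cut (y axis), for sites with and without A-rich genome after them, at the dPAS (left panel) and the pPAS (right panel), in members (blue) and other genes (grey). Bars are shares over sites, lines are 95% Wilson intervals and n is the number of sites. Among members the share is 0 of 6 at A-rich dPASs and 25% at A-rich pPASs, against 80% and 82.1% at the remaining sites.

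The runs of A are shown for some members with an A-rich site in 30 nt of genome, the last 10 nt up to the cut and the 20 nt after it. Capitals mark runs of 6 or more A, and these members were chosen after their sequences had been seen.
EIF4A1 dPAS, chr17:7482008-7482037, plus strand: gctcttctcccAAAAAAAAAAAAAAAAcac
EIF5A2 dPAS, chr3:170606843-170606872, minus strand: aacctattttacAAAAAAAAAAAAAAAAAA
EIF3I pPAS, chr1:32697082-32697111, plus strand: aactccgtctcAAAAAAAAAAAAgaagaag
EIF2AK4 pPAS, chr15:40327659-40327688, plus strand: accctgtcttAAAAAAAAAAAgAAAAAAAA
RPL7L1 pPAS, chr6:42857169-42857198, plus strand: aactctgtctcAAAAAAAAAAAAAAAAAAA
The pPASs of EIF3I, EIF2AK4 and RPL7L1 looked alike, and a shared string of letters, AGCNANAC, was then searched in the 30 nt up to each PAS on the strand of the transcript. It was chosen after the sequences had been seen. It stood at no dPAS of the members, at 4 of the 12 A-rich pPASs, these among them, and at none of the 39 other pPASs. At dPASs of the other genes it stood at 15% of the A-rich and 0.125% of the remaining sites. At their pPASs the shares were 14.9% of the A-rich sites (12.5 to 17.7%) and 0.256% of the remaining ones (0.109 to 0.597%). In GRCh37, the 100 nt up to the pPAS of EIF3I matched 4207 other places at 90% identity or more over at least 80 nt, that of RPL7L1 matched 4154 and that of EIF2AK4 matched 169. The dPAS of TARS2 matched 418 places. A repeat annotation was not used here.

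Close copies elsewhere in the genome were counted at 95% identity or more over at least 90 of the 100 nt up to a PAS, for the members alone. They were found for 19 of 51 members (37.3%, 25.3 to 51%). The other genes were not searched, so this share cannot be called high or low. The pPAS had such a copy in all 19 and the dPAS in 8. By role, 8 of 9 ribosomal protein genes, 7 of 17 initiation genes, 3 of 6 elongation and release genes and 1 of 5 genes of the AGO, PUM and LARP group had one, and none of the 14 synthetase genes had one. A read from such a stretch could align to more than 1 place, and the library statistics describe aligned reads as uniquely mapped. A copy at full identity over the 100 nt was found for 3 members. How reads from these stretches aligned was not examined, so whether the counts behind these sites were affected is unknown.

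For ribosomal protein genes the copies were largely annotated pseudogenes. RPS2 had 18 copies of the stretch up to its dPAS, 17 of them over an annotated pseudogene, and 17 of the stretch up to its pPAS, all over one. RPL23 had none at the dPAS and 2 at the pPAS, both over pseudogenes. RPL14 and RPL26L1 had 1 at the pPAS each, over a pseudogene. RPL22 had 2 and RPL7L1 had 3 at the pPAS, none of them over one, and RPS13 had none at either site. The stretches up to both sites of RPS2 overlap, so the copies counted at each may be partly the same places.

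Among the factors, EEF1A1 had no copy at the dPAS and 14 at the pPAS, 6 of them within another annotated gene and 8 outside any. EEF2KMT had 13 copies at the dPAS, 12 of them over genes typed as pseudogenes, and 11 at the pPAS, none over a gene of that type. At both sites some copies lay over genes typed as lncRNA, among them FAM86EP and FAM86JP. EIF4A1 had 2 copies at the dPAS and 4 at the pPAS, and EIF3L had 3 and 2. EIF1AX and EIF5 had 1 at each site. EIF4E and ETF1 had 2 at the pPAS, and EIF1, EIF4EBP2 and LARP4 had 1 there, with none at the dPAS of these 5 genes.

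Sites of some members also lay inside a second annotated gene. On the same strand this was so for 6 members (11.8%, 5.51 to 23.4%) and for 9.57% of the other genes in the annotation. They were EIF3L, EIF4A1, EIF4E3, EEF1AKMT2, RPL22 and MARS2, each with both sites, and reads there cannot be given to one of the genes by position and strand. For EIF4A1 one such gene was the readthrough gene SENP3-EIF4A1. On the opposite strand a second gene lay over a site of 7 members (13.7%, 6.81 to 25.7%) and of 20.6% of the other genes. Both sites of EIF2A overlapped SERP1, both of AARS2 overlapped TMEM151B, both of EEF2KMT overlapped ALG1, and the dPAS of EIF4A2 overlapped RFC4. Both sites of GSPT1 overlapped the antisense transcript RSL1D1-DT. The dPAS of EEF2K and both sites of LARS1 lay over a lncRNA.

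Copies of UGUA, the letters CFIm25 binds, were counted over the last 100 nt before each cut. The members had a mean of 0.86 ± 1.13 UGUA (SD over 51 genes) before the dPAS and 0.73 ± 0.85 before the pPAS. The other genes had 0.94 ± 1.00 before the dPAS and 0.74 ± 0.94 before the pPAS. The mean difference, dPAS minus pPAS, was 0.14 ± 1.40 in the members and 0.20 ± 1.33 in the other genes, so the spread between genes was several times the difference. More UGUA stood before the dPAS in 17 members (33.3%), the count was equal in 18 (35.3%) and more stood before the pPAS in 16 (31.4%). In the other genes these shares were 36.6%, 37.7% and 25.7%. The windows of the 2 sites share sequence in pairs under 100 nt apart, which were 12 members (23.5%) and 10.6% of the other genes. In the 39 members with sites at least 100 nt apart, the mean difference was 0.10. No UGUA stood before either site in 12 members, a count that was not made for the other genes.

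**Figure D4:**
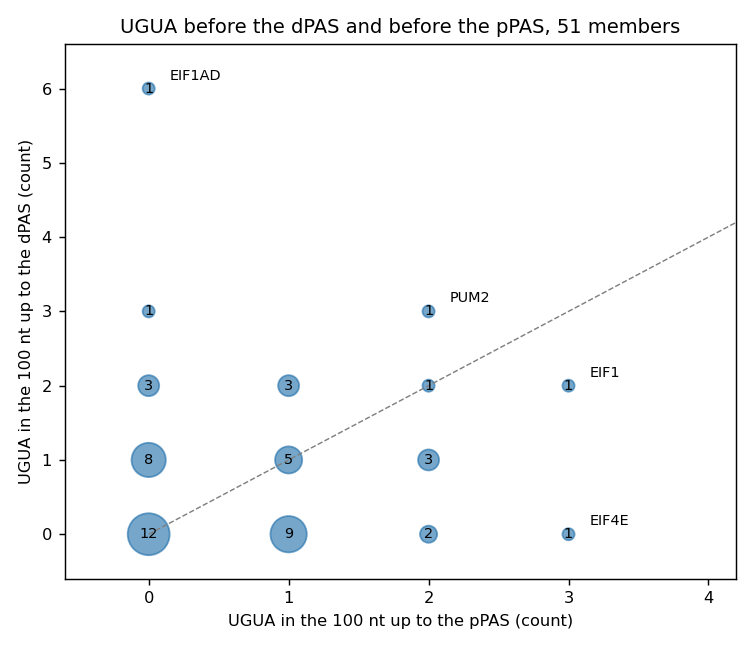
Number of UGUA in the 100 nt up to the dPAS (y axis) against the number up to the pPAS (x axis) for the 51 members, with the number of genes written in each circle and the dashed line marking equal counts. EIF1AD lies alone at 6 before the dPAS and 0 before the pPAS, EIF4E lies at 0 and 3, and 12 genes lie at 0 and 0.

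By role the initiation genes held the extremes. EIF1AD, a gene with an eIF1A domain, had 6 UGUA before the dPAS and none before the pPAS, and EIF4E, the cap-binding factor, had none before the dPAS and 3 before the pPAS. EIF1, which helps to choose the start codon, had 2 before the dPAS and 3 before the pPAS. In elongation and release, the largest gain was 1 UGUA, in ETF1 and EEF1AKMT2, and the only loss was in EEF2K, with 1 before the dPAS and 2 before the pPAS. Among ribosomal protein genes, RPL22 and RPL7L1 had 2 before the dPAS and none before the pPAS, and RPL26L1 had the only loss, with none and 1. TARS1, a synthetase, had 2 before the dPAS and none before the pPAS, and losses among the synthetases were of 1 UGUA each.

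The mitochondrial synthetases ran the other way. None of the 6 had UGUA before the dPAS, and 4 of them, MARS2, TARS2, EARS2 and WARS2, had 1 before the pPAS. In the AGO, PUM and LARP group all 5 genes had UGUA before both sites (lower Wilson limit 56.6% at each site). These were 3 before the dPAS and 2 before the pPAS in PUM2, 2 and 1 in LARP4, 1 and 2 in AGO1, and 1 and 1 in AGO2. Of the other genes, 60.1% had UGUA before the dPAS and 49.4% before the pPAS. The limit for the 5 genes lay below the first of these shares and above the second. The share of other genes with UGUA before both sites is not given here.

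Between the sites, in the sequence that an mRNA has only when it ends at the dPAS, the members held 328 UGUA in 57816 nt, or 5.67 per 1000 nt, and the other genes 5.90 per 1000 nt. These densities pool the nt of all genes, so wide pairs weigh most. The 5 AGO, PUM and LARP genes gave 20980 of the members' nt and 135 of their UGUA. The Pumilio motif, TGTANATA in the genomic strand, stood between the sites of 9 members (17.6%, 9.57 to 30.3%) and of 21.4% of the other genes. The 9 were EIF1AD with 3 copies, AGO2 with 2, and EIF1AX, EEF1AKMT2, EEF2KMT, MARS2, WARS2, LARP4 and AGO1 with 1 each. It overlaps UGUA in its first 4 letters, and both were searched on the strand of the transcript.

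ATTTA, the core of AU-rich elements that shorten the life of many mRNAs, stood between the sites of 29 members (56.9%, 43.3 to 69.5%) and of 69.0% of the other genes. Pooled over the nt of all genes, there were 2.82 per 1000 nt in the members and 2.33 in the other genes. AGO2 held 26, LARP4 16, GSPT1 14 and AGO1 13, all of them in pairs at least 2003 nt apart. The GC content between the sites had a median of 36.4% in the members and 37.4% in the other genes. By role it was lowest in the ribosomal protein genes, with a median of 28.0%, but their stretches were short, with a median of 50 nt. RPL23 had the lowest value of all members, 13.8%, over only 29 nt.

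Small nucleolar RNAs are often cut from introns of translation genes. An annotated snoRNA or scaRNA lay within the bounds and on the strand of 11 of the 51 members (21.6%, 12.5 to 34.6%), and of 84 of the 2665 other genes found in the annotation (3.15%, 2.55 to 3.89%). Of these members EIF4A2 held 5, EIF4A1, EIF1AX, RPS2, RPL23 and RPS13 held 2, and EIF2AK4 and EIF5 held 1.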

How the data were processed

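HL-60 cells were profiled by QuantSeq FWD 3’-end sequencing, with 3 OE-CFIm25 and 3 OE-control samples. The authors removed adapters and the poly(T) stretch of read 2, mapped the rest to hg19 using STAR 2.7.7a, assigned reads ending within 24 nt to PASs of PolyA_DB, and listed the most used pair of sites in the last-exon 3’ UTR of each gene as pPAS and dPAS. Positions were used as listed, after 1 repeated row was removed from 2724. The deposited statistics also gave counts of reads at PASs within genes for 6 numbered libraries, which were used as a range over all 6, since their numbers match no sample. Columns with the study's own comparison of the groups (a log2 difference, a p-value and a change label per gene) and the statistics of read 1 were not used, so no test was run.

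Sequence was read from GRCh37 and positions were placed with GENCODE release 44 lifted to it, with 24 nt past an annotated end counted as inside. Motif counting was tested on simulated data. Copies were searched with blastn 2.17.0 (word size 16). Intervals are 95% Wilson intervals for shares and order-statistic intervals for medians, both over genes. Members and lists were chosen with earlier results of these data known. Within each role the text names the narrowest and widest pairs, the largest gain and loss of UGUA, and every member with overlapping windows, A-rich sequence, a site outside the 3’ UTR or a copy elsewhere, except that some members and sequences are not reported here. Analyses used Python 3.11.15 with pandas 2.3.3, scipy 1.17.1 and pysam 0.24.0, and figures were drawn with matplotlib 3.10.9.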

Additional observations from a re-analysis of the deposited data

How the results depend on the processing

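No paired analysis was possible because the values used were 1 position per site for the whole series and no test was made. Of 26 alternatives over 9 results, 20 stayed within the interval, the standard error or 1.5 times the count of the main value. With more hexamers searched (16 in all), the share of members with a signal was 88.2% at the dPAS and 82.4% at the pPAS, against 70.6% and 68.6% with AATAAA and ATTAAA. Without A-rich sites, an alternative chosen after seeing the data, the share was 82.1% at the pPAS. The mean UGUA difference, dPAS minus pPAS, was 0.37 with a window of 200 nt against 0.14 with 100 nt, and it was −0.03 without pairs that had an A-rich site, also chosen after seeing the data. With assignment windows of 12 nt on each side, 0 members had overlapping windows, against 6 with 24 nt. Members with a copy elsewhere were 3 at full identity over 100 nt, against 19. The median spacing was 866 nt without the overlapping pairs. Reads per PAS were not analysed here, so the depth behind each site is unknown.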
